A study of Rattus norvegicus with 320 samples.

Results

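The miRNAs miR-675, miR-483 and miR-335 lie in H19, Igf2 and Mest, imprinted genes that act in growth before and after birth. The rows of the count table that bear these names, with or without an arm suffix, gave 5 members of the 616 miRNAs in the table, namely miR-675-3p, miR-675-5p, miR-483-3p, miR-483-5p and miR-335. They were chosen by name and gene of origin, and no measured value entered the rule. Earlier results of these data were known when the choice was made, so it was not blind to them. Small RNA was sequenced from 11 organs of rats of the inbred strain given in the labels as Fisher 344, pair-housed, with no drug or other agent named in the labels for any group. The organs were the adrenal gland, brain, heart, kidney, liver, lung, skeletal muscle, spleen, testis, thymus and uterus, taken at 2, 6, 21 and 104 weeks of age. Each organ, sex and age had 4 libraries, so that 9 organs had 8 libraries per age, while testis (males) and uterus (females) had 4. Of the 320 libraries, 2 that the study set aside (a male brain at week 6 and a female spleen at week 104) were left out. Several organs were taken from each rat, so libraries of different organs share animals.

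In an imprinted gene the copy from only one parent is active. Igf2 encodes insulin-like growth factor 2, a growth factor of the fetus that is expressed from the paternal copy, and miR-483 lies in one of its introns. H19, the neighbouring gene, makes a non-coding RNA from the maternal copy and is the precursor of miR-675. Mest, expressed from the paternal copy and abundant in mesoderm of the embryo, holds miR-335 in an intron. Igf2, H19 and Mest are known to be strongly expressed in growing tissue and to be turned down in most organs as growth slows after birth. A hairpin can yield a miRNA from either of its arms, named 5p and 3p, and bases 2 to 8 of a miRNA, the seed, carry most of the pairing with its targets.

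The mature sequences are shown because the 5p and 3p members of a hairpin are different molecules with different seeds, and each was counted on its own. They are written 5′ to 3′ with the seed in capitals.
miR-675-3p: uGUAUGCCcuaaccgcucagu
miR-675-5p: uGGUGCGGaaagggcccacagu
miR-483-3p: cACUCCUCcccucccgucuugu
miR-483-5p: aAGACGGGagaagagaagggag
miR-335: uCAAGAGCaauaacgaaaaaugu
The miRNAs were 21 to 23 bases long. The 5 seeds differed from each other, and 0 other rows of the table shared one of them. The hairpins of H19 and Igf2 are shown whole as RefSeq (GRCr8) gives them, with the 5p and then the 3p miRNA in capitals, because both arms of each were counted.
Mir675: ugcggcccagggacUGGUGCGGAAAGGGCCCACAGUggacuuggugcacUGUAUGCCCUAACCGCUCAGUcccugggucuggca
Mir483: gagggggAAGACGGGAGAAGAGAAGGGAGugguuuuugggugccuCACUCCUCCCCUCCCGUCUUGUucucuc
The first 4 mature sequences were the same in the RefSeq miRNA table. In the RefSeq annotation of the GRCr8 assembly, Mir675 lies on the minus strand at chr1:207161752-207161835, inside H19 (chr1:207160175-207162851), and Mir483 lies on the minus strand at chr1:207247859-207247931, inside Igf2 (chr1:207243873-207261263). The H19 and Igf2 genes are 81021 bases apart. Mest lies on another chromosome, at chr4:60321814-60332288.

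Levels are given in CPM, the reads of a miRNA as a share of all miRNA reads in its library, scaled to the usual CPM unit. The libraries held 315550 to 10571766 miRNA reads, with a median of 2848155 over the libraries kept, and the liver was the shallowest organ (median 1040989) and the uterus the deepest (median 6436571). The miRNA markers of brain, liver, heart, skeletal muscle, testis and thymus were highest in their own organ (6 of 7 lists). The kidney list, miR-192-5p and miR-194-5p, summed to a mean of 224100 CPM in liver against 56880 CPM in kidney, so it did not mark the kidney. The 7 lists checked did not include those of spleen with blood and of endothelium in lung and other organs. The adrenal gland and the uterus had no marker list named for them. miR-335 was well covered, with more than 3 reads in 100% of the kept libraries and a mean of 669 reads. miR-483-3p exceeded 3 reads in 178 libraries, miR-483-5p in 132, miR-675-3p in 84 and miR-675-5p in 37, so levels of a few CPM in the last members rest on a handful of reads.

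The first question was where each miRNA was found while the rats were still growing. At week 2, miR-335 was highest in liver, at 982, 1197 and 2225 CPM (lowest, median and highest of 8 libraries) and a mean of 1400 ± 510.2 (SD). Skeletal muscle followed, at 357, 804 and 1479 CPM. Brain came next at 579, 883 and 1064 CPM, and heart at 439, 718 and 1081 CPM. The liver and muscle ranges overlapped, and the fitted difference between them was small, 0.49 on the log2 scale, with an adjusted p of 0.0289 in edgeR's quasi-likelihood test. At the low end, kidney had a mean of 114 ± 37.1 CPM and thymus a mean of 56.6 ± 32.6 CPM (SD, n = 8 each). No organ was without miR-335 at any age, and its lowest value in any library was 5.39 CPM.

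miR-483 and miR-675 were instead found mainly in skeletal muscle and liver at week 2. miR-483-3p ran from 411 to 578 CPM in muscle, with a median of 516 and a mean of 502 ± 59.3 (SD, n = 8). In liver it ran from 209.5 to 529 CPM, with a median of 322. The 2 ranges overlapped, and muscle was higher by 0.87 on the log2 scale (adjusted p = 0.0177, edgeR). The next organ was the heart, at a mean of 33.7 ± 9.36 CPM, and its highest library (45.4 CPM) was below the lowest library of muscle and of liver. miR-483-5p, the other arm of the hairpin, had means of 173 ± 56.9 CPM in liver and 154 ± 26.2 CPM in muscle (log2 difference -0.05, adjusted p = 0.876, which did not pass the test). The heart followed again, at 12.1 ± 3.32 CPM.

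miR-675-3p, from the H19 hairpin, had the same leading organs. It ran from 42.8 to 83.3 CPM in liver (median 52.9) and from 24.4 to 61.0 CPM in skeletal muscle (median 43.7) at week 2. These ranges overlapped, and the difference did not pass the test (log2 difference 0.14, adjusted p = 0.625). Both organs were higher than each of the 9 other organs. The heart was far below them, at a mean of 4.06 ± 1.43 CPM (SD, n = 8), and brain was the lowest, with 2 reads of miR-675-3p in all 8 libraries together. miR-675-5p was highest in muscle, at a mean of 7.60 ± 2.26 CPM, and second in liver, at 3.72 ± 2.60 CPM.

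Summed over the 4 ages and the 5 members, 624 of 1100 tests between pairs of organs passed, against 62% of such tests over all 616 miRNAs. miR-335 had the most, with 45 of 55 pairs at week 2 and 40 of 55 at week 104. miR-675-5p, which had the fewest reads, had 29 of 55 at week 2 and 10 of 55 at week 104. The order of organs changed with age, so it is given again below for the adult rats.

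**Figure D1:**
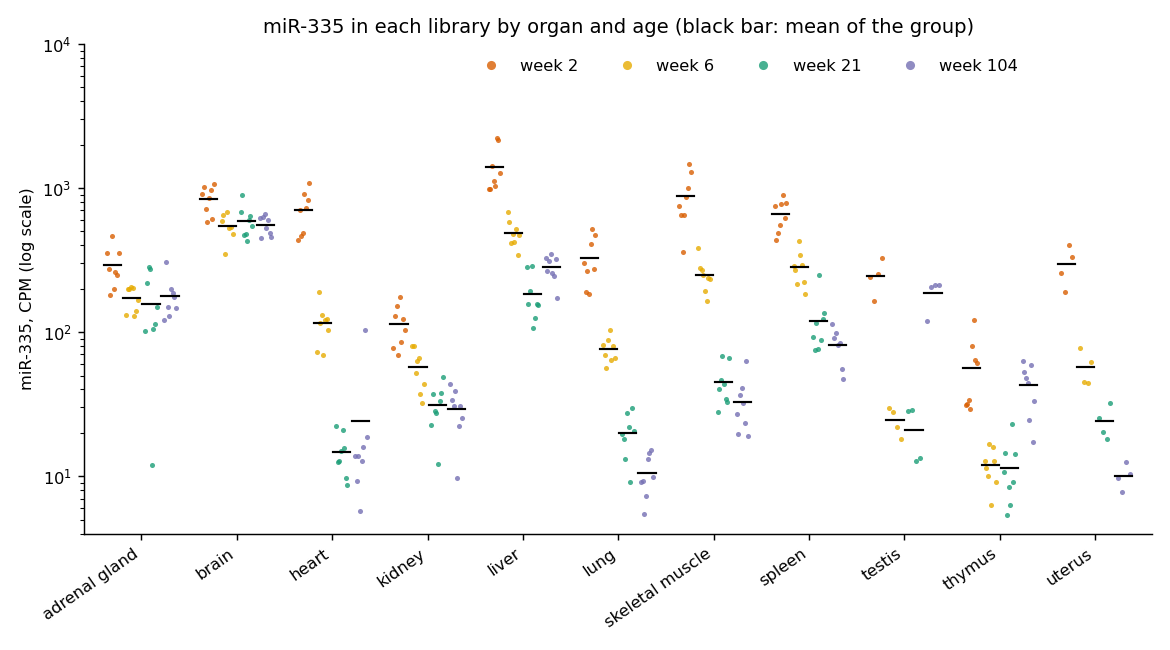
Level of miR-335 in each library (points, CPM on a log axis) by organ and age, with 8 libraries per organ and age in most organs and 4 in testis and uterus. All 11 organs had their highest mean at week 2, and in brain the points of the 4 ages lie close together, between 350.1 and 1064 CPM.

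The second question was how the levels changed as the rats matured. From week 2 to week 21 the members went down nearly everywhere. Each of the 5 members was tested in each of 11 organs, and 44 of these 55 tests gave a lower level at week 21 with an adjusted p below 0.05, against 25.1% of tests over all miRNAs. None of the 55 gave a higher level, against 20.8% over all miRNAs, and 0 of 55 were higher at an unadjusted p below 0.05 or by DESeq2. The lower calls were 10 of 11 organs for miR-335, miR-483-3p and miR-675-3p, 9 for miR-483-5p and 5 for miR-675-5p. DESeq2 gave 39 lower tests of 55, and edgeR with the sequencing lane in the model gave 36. In 34 of the 55, every library of week 2 lay above every library of week 21, against 20.5% over all miRNAs. In bulk tissue, fewer cells that hold a miRNA and less of it per cell cannot be told apart, and CPM is a share of all miRNA reads, not an absolute amount.

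The fall of miR-335 was largest in heart. The heart values were 439, 718 and 1081 CPM at week 2 (lowest, median, highest, n = 8), 69.3, 119 and 189 CPM at week 6, and 8.72, 13.8 and 22.5 CPM at week 21. The groups did not overlap at any of these steps, and week 21 was lower than week 2 by 4.82 on the log2 scale (SE 0.33, adjusted p = 2.48e-12). In lung, miR-335 went from 183, 289 and 519 CPM at week 2 to 9.11, 20.1 and 29.5 CPM at week 21 (log2 change -3.64, SE 0.18, adjusted p = 8.01e-19). In skeletal muscle it went from 357, 804 and 1479 CPM to 27.7, 42.1 and 68.6 CPM (log2 change -3.33, SE 0.20, adjusted p = 1.18e-18). These ranges were apart as well.

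In liver, the organ with the most miR-335 at week 2, the fall was smaller, to 107, 156 and 288 CPM at week 21 (log2 change -2.50, SE 0.16, adjusted p = 4.09e-16). Testis, uterus, spleen, thymus and kidney fell by 3.29, 3.12, 2.21, 2.12 and 1.65 on the log2 scale. Spleen RNA of week 2 was of lower integrity per the study, so age and RNA integrity cannot be told apart in spleen. The adrenal gland had 180.3, 269 and 462 CPM at week 2 and 11.9, 132 and 281 CPM at week 21, and the ranges overlapped. Its log2 change was -0.57 (SE 0.21, adjusted p = 0.0242), and this call did not hold with the sequencing lane in the model (log2 change -0.51, adjusted p = 0.110) or without replicate 2, 3 or 4 (log2 change -0.65, -0.72 and -0.62, adjusted p = 0.0628, 0.0577 and 0.0634). The lowest adrenal value, 11.9 CPM, belonged to a single male library.

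Brain was the only organ where the fall of miR-335 did not pass the main test. Its values were 579, 883 and 1064 CPM at week 2 and 432, 573 and 889 CPM at week 21, which overlap widely. The log2 change was -0.06 (SE 0.13, adjusted p = 0.691) with trimmed mean of M values (TMM) scaling, which corrects for a few very abundant miRNAs. With library size as the only scaling the change was -0.50 and passed the test (adjusted p = 0.00508), so the call in brain depends on the scaling, while the size of the change stayed far below that in heart under both. In a model of all organs together, the change of miR-335 from week 2 to week 21 differed between brain and heart by 5.06 on the log2 scale (SE 0.30, adjusted p = 5.81e-40). Between adrenal gland and brain it did not differ past the threshold (log2 difference, adrenal gland minus brain, -0.33, SE 0.28, adjusted p = 0.42). Brain was thus not set apart from the adrenal gland.

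The members of the Igf2 and H19 hairpins fell to the limit of detection in liver. miR-483-3p had 209.5, 322 and 529 CPM there at week 2, 0, 1.56 and 4.49 CPM at week 6, and 0 reads in 8 of 8 libraries at week 21. Against a floor of 3 reads over the group, the level at week 21 was at least 857-fold lower than at week 2. miR-483-5p went from 108, 174 and 267 CPM to 0, 0 and 0.865 CPM. miR-675-3p went from 42.8, 52.9 and 83.3 CPM at week 2 to 1 read in the 8 libraries of week 21 together, a ratio of pooled levels of 434 (95% exact counting interval 77.7 to 17190). At week 6 the liver already held only 2 reads of miR-675-3p in 8 libraries, so most of its decline came between weeks 2 and 6.

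In skeletal muscle the miRNAs of both hairpins fell, by amounts that were not tested against each other. miR-483-3p went from 411, 516 and 578 CPM at week 2 to 34.9, 47.3 and 81.5 CPM at week 6 and 1.10, 4.91 and 9.32 CPM at week 21. No ranges overlapped, and the change from week 2 to week 21 was -5.83 on the log2 scale (SE 0.27, adjusted p = 1.90e-22). miR-675-3p started at 24.4, 43.7 and 61.0 CPM, was at 22.3, 28.1 and 37.9 CPM at week 6, and was still at 7.66, 15.5 and 17.9 CPM at week 21. Its change was -0.80 (SE 0.19, adjusted p = 0.000389). With library size only it was -1.64, and with the lane in the model it was -0.50 and no longer passed (adjusted p = 0.118). The median change of all miRNAs in muscle between these ages was -0.14 with TMM scaling and lower by 0.68 with library size only.

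miR-675-3p also fell in heart, by 3.95 on the log2 scale (SE 0.61, adjusted p = 4.42e-07), from 1.23, 4.34 and 5.57 CPM at week 2 to 3 reads in 8 libraries at week 21. In the model of all organs together, the decline in muscle was smaller than that in heart by 3.59 on the log2 scale (SE 0.62, adjusted p = 2.63e-07). In brain, miR-675-3p gave 2 reads at week 2 and 1 read at week 21 in 8 libraries each, so no change could be measured.

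Testis was the exception for miR-483-3p. The 4 testis libraries had 9.86 ± 2.14 CPM (SD) at week 2, 10.9 ± 3.92 at week 6 and 7.52 ± 2.39 at week 21. The log2 change from week 2 to week 21 was -0.06 (SE 0.31, adjusted p = 0.922). Brain had a small decline, from 9.83 ± 2.08 CPM to 4.15 ± 2.29 CPM (n = 8; log2 change -0.82, SE 0.27, adjusted p = 0.00915), which did not hold with the lane in the model (adjusted p = 0.233) or without replicate 1 (adjusted p = 0.105). The remaining 9 organs fell by 2.41 (heart) or more.

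**Figure D2:**
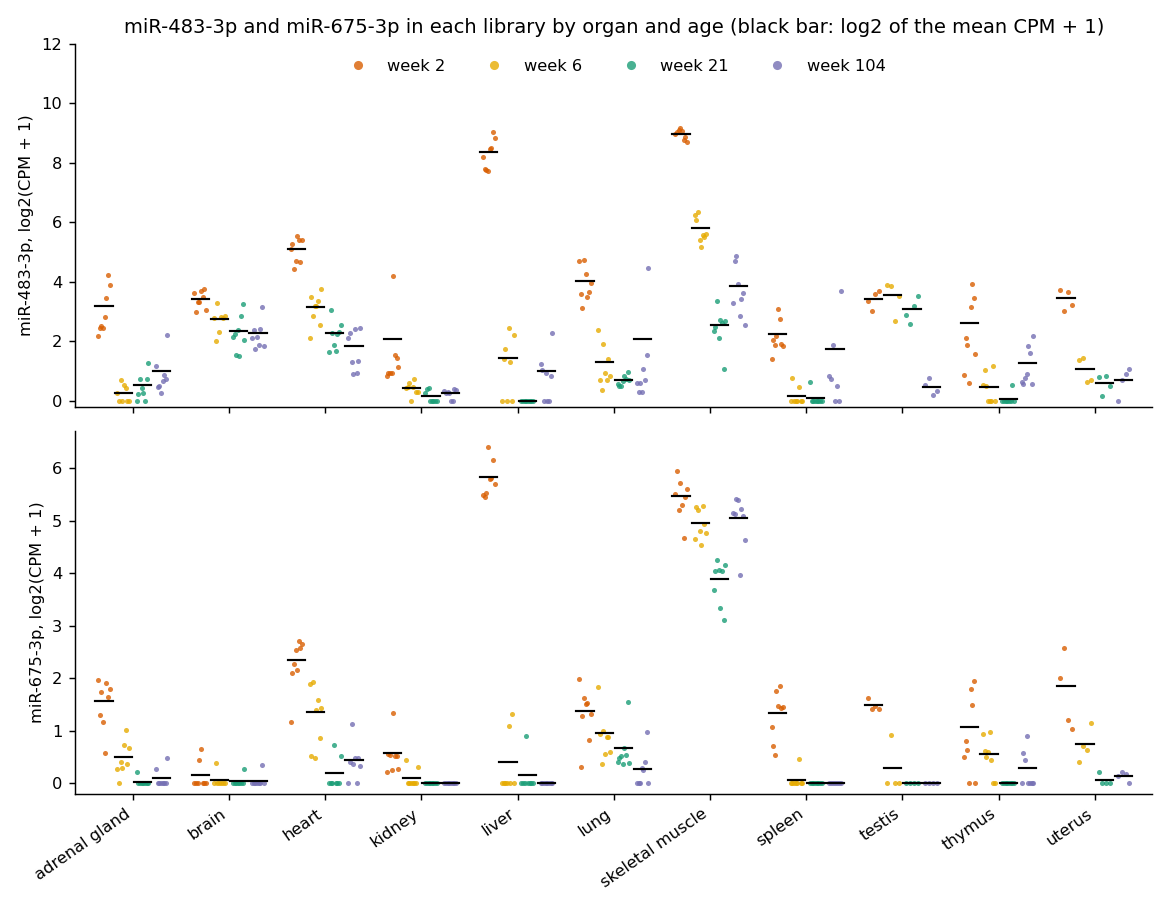
Levels of miR-483-3p and miR-675-3p in each library (points, log2(CPM + 1)) by organ and age, with 4 or 8 libraries per organ and age and a black bar at the log2 of the mean CPM + 1. Skeletal muscle and liver stand above the other organs at week 2, liver is at 4.49 CPM or less from week 6 on, and miR-675-3p in muscle is at 7.66 CPM or more in every library.

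The decline was spread unevenly over the time between weeks 2 and 21. From week 2 to week 6, 38 of 55 tests gave a lower level (20.5% over all miRNAs) and 0 a higher one (15.3%), and 0 were higher at an unadjusted p below 0.05 or by DESeq2. miR-335 was lower in 11 of 11 organs, miR-483-3p and miR-483-5p in 9, miR-675-3p in 6 and miR-675-5p in 3. For this step DESeq2 gave 29 lower tests of 55, and edgeR with the lane in the model gave 27. From week 6 to week 21, 17 of 55 were lower (8.77%) and 0 higher (7.14%; 2 at an unadjusted p below 0.05 and 0 by DESeq2), with 7 organs for miR-335, 5 for miR-675-3p, 3 for miR-483-3p and 1 each for the other two. Leaving out 1 replicate number at a time lowered the 17 to between 10 and 12. The brain call for miR-335 between weeks 2 and 6 (log2 change -0.36, adjusted p = 0.0263) was lost with the lane in the model and without replicate 1.

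The change with age was not the same in all organs. In a model of all 80 groups, the interaction of organ and age from week 2 to week 21 was tested over the 9 organs with both sexes. It passed for 5 of 5 members, against 79.4% of all miRNAs, so most miRNAs did so. Adjusted p was 2.59e-50 for miR-335, 1.22e-26 for miR-483-3p, 1.10e-30 for miR-483-5p, 2.01e-21 for miR-675-3p and 0.0111 for miR-675-5p. By DESeq2, and when any 1 replicate number was left out, 4 of 5 members passed. Among pairs of organs with reads of the member in all groups, the change differed in 29 of 36 pairs for miR-335, 7 of 10 for miR-483-3p, 13 of 28 for miR-483-5p, 2 of 3 for miR-675-3p and 0 of 1 for miR-675-5p, against 35.9% of such tests over all miRNAs.

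**Figure D3:**
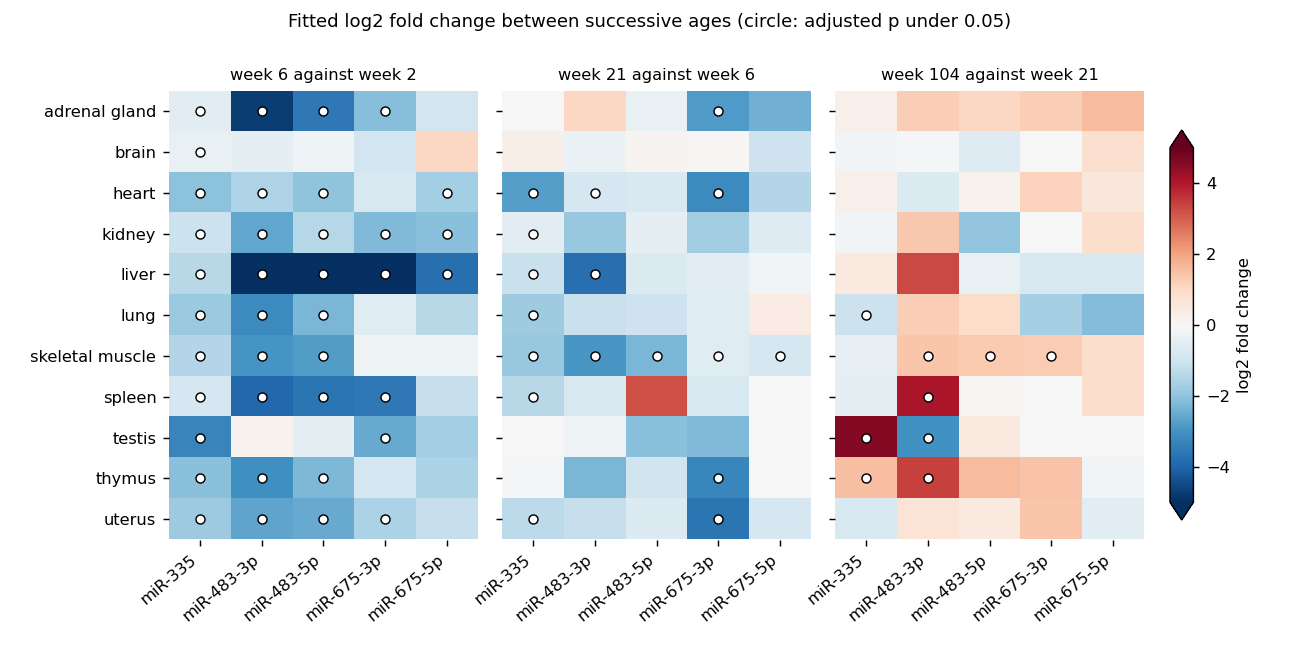
Fitted log2 fold change of each member (columns) in each organ (rows) for the steps from week 2 to 6, week 6 to 21 and week 21 to 104, as a colour scale, where a circle marks an adjusted p below 0.05. The circles of the first 2 steps (38 and 17) all mark lower levels, and those of the last step mark 7 higher and 2 lower levels.

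In the adult the order of organs was another one. At week 21, brain led for miR-335 (593 ± 148 CPM, SD, n = 8), and liver (183 ± 68.5 CPM) was next in the order of CPM. The CPM ranges of brain and liver did not overlap. With TMM scaling the difference fitted by edgeR was only 0.41 on the log2 scale and did not pass (adjusted p = 0.127). The size of this difference thus depends on the scaling. Adrenal gland (157 ± 93.7 CPM) and spleen (119.7 ± 57.1 CPM) followed. Heart, which had been among the highest at week 2, had 14.7 ± 4.91 CPM, close to thymus with 11.5 ± 5.74 CPM. miR-675-3p was higher in skeletal muscle than in each of 10 other organs at weeks 6, 21 and 104, and the smallest of these log2 differences were 4.10, 5.23 and 7.03. miR-483-3p was higher in muscle than in each of 10 organs at weeks 6 and 104, and than in 9 of 10 at week 21, when testis had the highest mean (7.52 ± 2.39 CPM, n = 4, against 4.82 ± 2.33 CPM in muscle), and the fitted difference with TMM scaling, testis minus muscle, was -0.55 on the log2 scale and did not pass (adjusted p = 0.222). miR-483-5p had its highest mean CPM at week 21 in brain (2.90 ± 0.93 CPM, against 2.31 ± 1.14 CPM in muscle), while with TMM scaling brain was lower than muscle (log2 difference -1.35, adjusted p = 0.000351), so this order depends on the scaling. At week 104 miR-483-5p was highest in muscle (6.07 ± 3.33 CPM). miR-675-5p had its highest mean in muscle at both ages (1.795 ± 1.44 and 3.59 ± 1.58 CPM).

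The third question was what happened in old age. Between weeks 21 and 104 the 55 tests gave 7 higher levels (7.08% over all miRNAs) and 2 lower levels (8.44%). The calls fell on skeletal muscle, testis, thymus, lung and spleen. The share of all miRNAs called in each organ at this step is not given. Whether this spread over organs is particular to the members was therefore not tested.

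In old skeletal muscle, miR-675-3p rose, to 14.6, 34.2 and 41.5 CPM at week 104 (lowest, median, highest, n = 8) from 7.66, 15.5 and 17.9 CPM at week 21. The ranges overlapped at their edges, and the log2 change was 1.27 (SE 0.20, adjusted p = 5.79e-06). The mean at week 104, 32.3 ± 9.04 CPM, lay between that of week 2 and that of week 21, and near that of week 6 (30.0 ± 6.17 CPM). miR-483-3p rose too, from 4.82 ± 2.33 CPM to 13.6 ± 8.69 CPM (log2 change 1.38, SE 0.27, adjusted p = 0.000169), and miR-483-5p from 2.31 ± 1.14 CPM to 6.07 ± 3.33 CPM (log2 change 1.295, SE 0.29, adjusted p = 0.00108). These levels stayed far below the 502 CPM and 154 CPM of week 2.

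For miR-335 no such rise was seen in muscle. It had 45.0 ± 15.0 CPM at week 21 and 32.6 ± 14.4 CPM at week 104 (log2 change -0.43, SE 0.19, adjusted p = 0.138). The muscle markers miR-133a-3p and miR-206-3p (2 of 2 found) summed to 129500 ± 13870 CPM at week 21 and 139800 ± 23420 CPM at week 104. The red cell list (3 of 3 found) summed to 55050 to 82680 CPM at week 21 and 36860 to 87550 CPM at week 104. Its members are not given apart, so in muscle the sum need not follow red cells alone. Whether other cells in the muscle had a part in the rise was not tested.

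**Figure D4:**
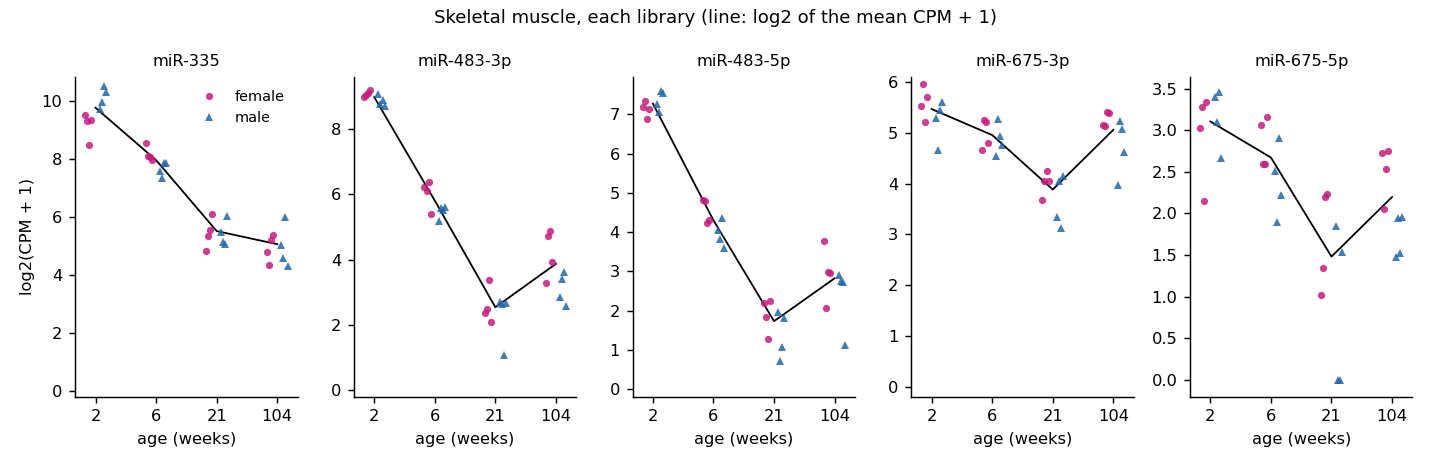
Levels of the 5 members in each skeletal muscle library by age (points, females as circles and males as triangles), with 8 libraries per age. miR-335, miR-483-3p and miR-483-5p fall through weeks 6 and 21, and miR-675-3p is at 7.66 to 17.9 CPM at week 21 and 14.6 to 41.5 CPM at week 104.

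In old testis, miR-335 and miR-483-3p moved in opposite directions. The 4 libraries of miR-335 were at 28.3, 28.6, 12.9 and 13.4 CPM at week 21 and at 120.3, 207, 213 and 212 CPM at week 104, with no overlap. The log2 change was 4.60 (SE 0.35, adjusted p = 4.90e-09), and 3.18 with library size only. The mean at week 104, 188 ± 45.2 CPM, was near that at week 2 (246 ± 66.1 CPM). miR-483-3p was at 6.40, 5.05, 8.03 and 10.6 CPM at week 21 and at 0.448, 0.710, 0.137 and 0.271 CPM at week 104, also with no overlap (log2 change -3.02, SE 0.43, adjusted p = 9.19e-06). Beside these changes, the testis markers miR-741-3p and miR-463-5p (2 of 2 found, none at 0) summed to 7218 to 11300 CPM at week 21 and to 28.2 to 505 CPM at week 104. The part of this loss in the miR-335 and miR-483-3p changes was not tested. Library size scaling lowered the median change of all miRNAs in testis by 1.13 on the log2 scale against TMM scaling.

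In old thymus, miR-335 rose from 5.39, 9.89 and 23.0 CPM at week 21 to 17.4, 46.2 and 63.5 CPM at week 104 (n = 8; log2 change 1.51, SE 0.20, adjusted p = 7.01e-08). The ranges overlapped at their edges. miR-483-3p was found in 1 of 8 thymus libraries at week 21, with 0.434 CPM, and in all 8 at week 104, with 0.482 to 3.53 CPM (log2 change 3.42, SE 0.88, adjusted p = 0.00166). Beside these, miR-181a-5p, the marker of developing T cells, went from 249300 to 386700 CPM at week 21 down to 13920 to 105900 CPM at week 104. The red cell list (3 of 3 found) went from 1148 to 5278 CPM up to 6243 to 93490 CPM, and the epithelial list (5 of 5 found) had 3588 to 6009 CPM and 978 to 13250 CPM. The part of these other cells in the miR-335 and miR-483-3p changes was not tested.

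**Figure D5:**
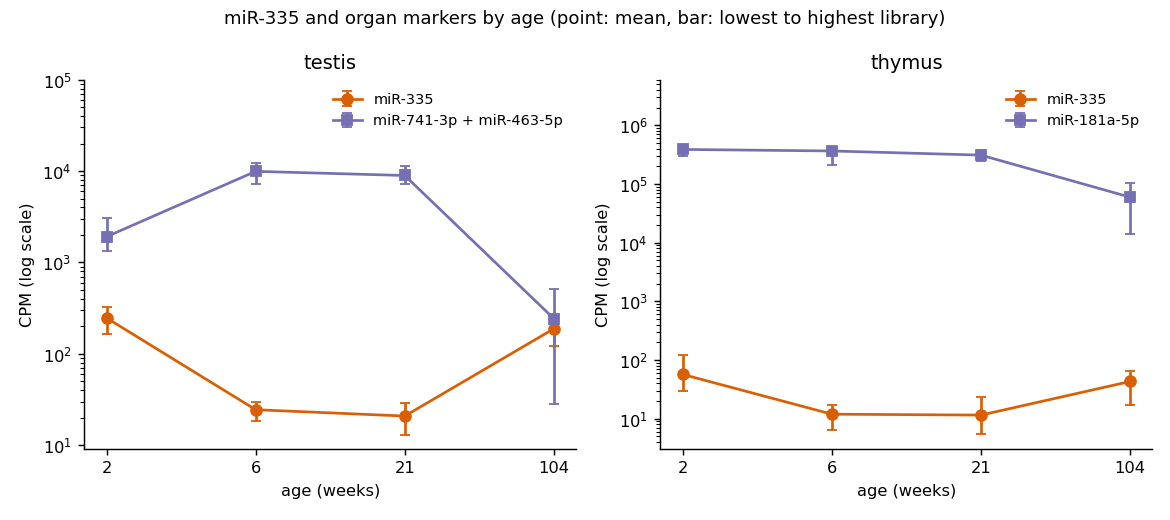
Mean level of miR-335 by age beside the testis markers miR-741-3p and miR-463-5p in testis (n = 4) and the T cell marker miR-181a-5p in thymus (n = 8), in CPM on a log axis, where bars run from the lowest to the highest library. Between weeks 21 and 104 miR-335 goes from 20.8 to 188 CPM in testis and from 11.5 to 42.9 CPM in thymus, while the markers go down.

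In lung, miR-335 kept falling in old age, from 9.11, 20.1 and 29.5 CPM at week 21 to 5.43, 9.62 and 15.1 CPM at week 104 (log2 change -1.09, SE 0.17, adjusted p = 3.89e-05). In spleen, miR-483-3p was in 1 of 8 libraries at week 21, and reached 2.37 ± 4.37 CPM at week 104 in the 7 libraries kept (log2 change 4.10, SE 1.09, adjusted p = 0.0172). That mean rests on a single male library with 12.1 CPM, and without replicate 4 the log2 change was 2.26 and did not pass the test (adjusted p = 0.518). The call was also lost without replicate 2 (log2 change 4.29, adjusted p = 0.115) and without replicate 3 (log2 change 3.88, adjusted p = 0.115), while the change stayed about as large. In uterus, miR-335 had 24.0 ± 6.24 CPM at week 21 and 10.1 ± 1.96 CPM at week 104 (n = 4), a log2 change of -0.74 that just missed the threshold (adjusted p = 0.0525) and was -1.25 and past it with library size only (adjusted p = 0.00386).

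The next comparison was that of the sexes, in the 9 organs that both have. Averaged over the ages, 0 of 45 tests of the members passed in edgeR, against 1.17% of tests over all miRNAs, with 7 of 45 at an unadjusted p below 0.05 and 0 of 45 by DESeq2. The smallest adjusted p was that of miR-335 in lung, where females were lower by 0.43 on the log2 scale (adjusted p = 0.116). The change of the sex difference from week 2 to week 21 passed in 0 of 45 tests in edgeR (0.812% over all miRNAs), with 4 at an unadjusted p below 0.05, and in 1 by DESeq2 (miR-335 in liver, adjusted p = 0.0496).

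At week 2 alone, a contrast chosen after the values were seen, 2 of 45 passed (2.15% over all miRNAs). miR-335 in the week 2 thymus was at 31.1, 31.9, 33.6 and 29.2 CPM in females and at 80.3, 122, 64.5 and 60.6 CPM in males, with no overlap (log2 difference, female minus male, -1.04, SE 0.26, adjusted p = 0.0411). The call was lost with the lane in the model, with the replicate block (adjusted p = 0.0511) and when any 1 replicate number was left out, where the log2 difference was -0.85 to -1.20. The other 8 organs did not pass for miR-335. The nearest was skeletal muscle, at 746, 647, 357 and 652 CPM in females and 863, 1006, 1479 and 1291 CPM in males (log2 difference -0.82, adjusted p = 0.0533). The second call, miR-483-3p in kidney, rested on 1 male library at 17.3 CPM beside 0.794 to 1.91 CPM in the 7 others, and was lost without replicate 1 (adjusted p = 0.276).

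The arms of each hairpin are given as shares of its reads, not as amounts. In skeletal muscle 84.6% to 89.7% of miR-675 reads were from the 3p arm at the 4 ages, and in week 2 liver 93.9% were. For miR-483, 76.5% of reads in week 2 muscle and 65.0% in week 2 liver were from the 3p arm. The log2 ratio of the arms was tested between weeks 2 and 21 where both ages had enough reads, which was 1 organ for each hairpin. For miR-675 in muscle the difference was -0.61 (p = 0.237, exact permutation test, two-sided). For miR-483 in brain the log2 ratio of 5p to 3p was -1.27 ± 0.56 at week 2 and -0.39 ± 0.68 at week 21 (SD, n = 8 each), a difference of 0.88 (p = 0.0137, exact permutation test, two-sided, and 0.0274 adjusted over 2 tests). This call was lost with the replicate block and without replicate 1, 3 or 4.

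The miRNAs most like each member were taken by Pearson's r of mean log2(CPM + 1) over the 80 groups of organ, sex and age, among the 457 miRNAs with a mean of 10 reads or more, which leaves out miR-675-5p. This is a description, since the groups share animals and libraries. In that pool miR-675-3p was most like miR-483-5p (r = 0.845) and miR-483-3p (r = 0.821), which come from the neighbouring Igf2, and then miR-206-3p (r = 0.706), a miRNA of skeletal muscle. miR-483-3p was most like miR-483-5p (r = 0.965), from the same hairpin, then miR-675-3p and miR-493-5p (r = 0.771), and miR-483-5p had the same next miRNAs, miR-675-3p and miR-493-5p (r = 0.767). miR-675-5p, taken against this pool, was most like miR-675-3p of its own hairpin (r = 0.949), then miR-483-5p (r = 0.832) and miR-483-3p (r = 0.798). miR-335 had r = 0.504 with miR-483-3p and 0.292 with miR-675-3p. Its closest were miR-337-5p (r = 0.708), miR-434-3p (r = 0.703) and miR-127-5p (r = 0.699), all of the imprinted Dlk1-Dio3 cluster.

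Other growth-related clusters were described by their counts over 11 organs for the change from week 2 to week 21. The Dlk1-Dio3 cluster, a large maternally expressed group of miRNAs, had 72 rows (41 of 44 hairpins found), and miR-431 and miR-433-3p were lower in 11 of 11 organs, while miR-134-5p and miR-136-5p were each lower in 9 and higher in 2. Of its 792 tests 520 were lower and 25 higher, with a median log2 change of -2.05, where the median over all miRNAs was -0.06. These are 65.7% and 3.16% of its tests, against 25.1% lower and 20.8% higher over all miRNAs. All 72 rows were lower in skeletal muscle and 64 of 72 in liver, but in brain 32 were lower and 10 higher, and in adrenal gland 18 were lower and 13 higher. The 4 rows of miR-296 and miR-298, from the imprinted Gnas locus, had 38 of 44 lower and 2 higher (median -3.43). The X-linked growth cluster, which holds miR-322, miR-503, miR-351 and miR-450a and is not known for imprinting, had 87 of 110 lower and 0 higher (median -1.39), with miR-351-5p lower in 11 of 11 organs. Between weeks 21 and 104 these lists gave 61 lower and 57 higher, 10 lower and 2 higher, and 7 lower and 8 higher tests. Over all miRNAs 8.44% of tests were lower and 7.08% higher at this step. Dlk1-Dio3 (7.70% and 7.20%) and the X-linked rows (6.36% and 7.27%) were near these shares. The 10 lower tests of the Gnas rows are 22.7% of 44, and 4 of 4 rows were lower in testis and in thymus. For Dlk1-Dio3 the totals hold organs that went opposite ways, with 30 rows lower and 0 higher in uterus, 25 lower and 0 higher in skeletal muscle, 27 higher and 1 lower in testis, and 20 higher and 0 lower in adrenal gland. Of the X-linked rows, 7 of 10 were higher in thymus. The counts within single organs are given without the share over all miRNAs in that organ.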

How the data were processed

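Small RNA libraries (Illumina TruSeq) were made from total RNA of whole ground organs. The read counts per mature miRNA were made and deposited by the authors as whole numbers without normalization, in 1 table of 616 miRNAs and 320 libraries, of which 0 columns were unmapped. Per the study's methods, adapters were removed and short or poor reads dropped with fastp, reads were aligned with Bowtie, and miRNAs with very few reads on average were discarded. The submitters' processing notes name fastp 0.23.2, Bowtie 1.3.1 and the build rn7. Coordinates given here are from the RefSeq GRCr8 annotation, since the table holds none. Reads were counted by mature name, PCR copies were not marked, and ligation can favour some miRNAs, so levels of different miRNAs are not compared as amounts, and shares of the arms are shares of reads.

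CPM was computed from column totals. Tests were edgeR quasi-likelihood tests (edgeR 4.0.16, R 4.3.3) on the counts with TMM scaling and robust fitting, fitted separately for each organ (sex-age groups) and each age (organ groups), and over all 80 groups for the organ by age interaction. Benjamini-Hochberg adjustment ran over all 616 miRNAs of a contrast, and calls were made at 0.05. Per the study's methods, the 4 replicates of a group came from separate rats. Intervals are exact at 95% and, with the floor of 3 counts, cover counting error only. Arm ratios used a pseudocount of 0.5 and organs with a median of at least 20 reads of both arms together. Alternatives were library size scaling, DESeq2 1.42.0, a mean count of at least 10, all 320 libraries, a replicate block, the sequencing lane (8 lanes, from the study's sample table) and leaving out each replicate number. Added after seeing the data were fits without 3 libraries that stand apart (a brain and a testis pair of week 104) and counts without the spleen, whose week 2 RNA was of lower integrity per the study. Python 3.11.15, NumPy 2.4.6, pandas 2.3.3, SciPy 1.17.1 and matplotlib 3.10.9 were used. The count tests were also run on simulated data, made with a single spread between replicates for all miRNAs. The outcome is not given, and no result here rests on it. By the naming rule all 5 rows enter every comparison, called or not, and those without values in the text stand in its counts. Each likeness lists the 3 closest miRNAs, and other lists name at most 4, those called in most organs. The members and lists were chosen with earlier results of these data known.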

Additional observations from a re-analysis of the deposited data

Results flagged for a closer look

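In groups of 4 to 8 libraries, 8 of 104 tested groups held a library far from the others, where chance gives about 5%. For miR-335 these were a female adrenal gland of week 104 at 307.5 CPM (7 others 121.7 to 198 CPM), a male heart of week 104 at 103 CPM (others 5.70 to 18.7 CPM), a male spleen of week 21 at 249.9 CPM (others 74.8 to 136 CPM) and a testis of week 104 at 120.3 CPM (3 others 207 to 213 CPM). For miR-483-3p they were a male brain of week 104 at 7.98 CPM (others 2.35 to 4.38 CPM) and a male kidney of week 2 at 17.3 CPM (others 0.794 to 1.91 CPM). For miR-483-5p a female brain of week 104 was at 3.44 CPM (others 1.35 to 1.93 CPM), which is 4 reads. This is the brain library among those that stand apart, and the study reported a much lower share of miRNA reads in it than the brain average. For miR-675-3p a female lung of week 6 was at 2.55 CPM (others 0.291 to 0.980 CPM).

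The change from week 2 to week 21 differed between organs for each member, with adjusted p of 2.59e-50 (miR-335), 1.22e-26 (miR-483-3p), 1.10e-30 (miR-483-5p), 2.01e-21 (miR-675-3p) and 0.0111 (miR-675-5p) in edgeR's quasi-likelihood test. By DESeq2, 4 of the 5 members passed.

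The libraries set aside by the study held reads of members above those of the 3 others of their group. Per the study, they were removed because they clustered with uterus samples and not with brain or spleen. The male brain of week 6 had miR-675-3p at 1.67 CPM (11 reads), where the 3 other males had 0. The female spleen of week 104 had miR-675-3p at 1.98 CPM (17 reads) and miR-675-5p at 0.465 CPM (4 reads), where the 3 other females had 0. It had miR-483-3p at 3.49 CPM (others 0.674 to 2.66 CPM), miR-483-5p at 1.98 CPM (others 0 to 0.801 CPM) and miR-335 at 203 CPM (others 90.4 to 114 CPM). These libraries entered only the alternative that includes all 320 libraries.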

How the results depend on the processing

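Of 110 single results of members past the threshold, 72 kept direction and call under all alternatives run for them, and none changed direction. The lane term ended 26 calls, DESeq2 15, library size only 2, the mean count minimum 1 of 63 and the replicate block 6, while leaving out replicate 1, 2, 3 or 4 ended 20, 21, 18 and 16. Including all 320 libraries or leaving out the 3 that stand apart ended 0. With a mean count of at least 10, fewer rows were tested, and the counts were 342 organ differences (624 with all rows), 22 lower at week 21 than at week 2 (44) and 19 lower at week 6 than at week 2 (38). By DESeq2, 4 tests were lower at week 104 than at week 21 (2 in edgeR), and the sex by age interaction gave 1 by DESeq2 and 1 with the lane in the model (0 in edgeR). Leaving out 1 replicate number at a time gave 10 to 12 lower at week 21 than at week 6 (10 without replicate 2, 11 without replicate 3), 0 to 1 for female against male (1 without replicate 1), 0 to 1 for the arm ratio, and 4 members of 5 for the organ by age interaction. Without the spleen, 41 tests were lower at week 21 than at week 2. The causes were not tested.

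The replicate numbers were not treated as pairs in the main fits. Deviations of libraries with the same number had a mean correlation of 0.00834 between organs, 0.00580 between ages and 0.00234 between sexes. These means cannot show whether a number marks the same rat. With the replicate block, 43 tests were lower at week 21 than at week 2, 34 at week 6 than at week 2, 17 at week 21 than at week 6, and 3 lower and 7 higher at week 104 than at week 21. The arm ratio call for miR-483 in brain was lost with the block (count 0). A minimum of 50 reads left no organ for the arm ratio, and gave no value. Depth limits miR-675-5p most, with more than 3 reads in 11.6% of libraries.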

Other observations

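In male rats of week 104, the library with replicate number 4 had the highest miR-483-3p among the 4 males in 6 of 10 organs, at 20.9 CPM in lung, 12.1 in spleen, 4.40 in heart, 3.82 in liver, 3.65 in adrenal gland and 3.53 in thymus. The labels do not say whether the number marks one animal. The library with number 3 had the highest miR-335 in 6 of 10 organs of the same males, among them the heart at 103 CPM. These were noticed in the values and were not tested.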
